A study of Mus musculus with 6 samples.

Results

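Chromatin immunoprecipitation with an NRF2 antibody followed by sequencing (ChIP-seq) gave 2 sets of NRF2 sites that recurred in both culture media in 1 genotype and were called in neither medium in the other. All peaks of the 4 annotated NRF2 peak lists were merged into 14390 regions, joining peaks that overlapped by at least 1 bp. The WT-recurrent set holds the 149 regions present in both wild-type lists and in neither GCN2-/- list. The KO-recurrent set holds the 97 regions present in both GCN2-/- lists and in neither wild-type list. The members were chosen by presence or absence of called peaks, so their presence and scores are described here without a test. Annotation, distance to genes, repeats, chromosome and spacing within a set were not used to choose them. The overlap rule does limit how far apart the peak centres of a member can lie. It also limits how close a peak of the other genotype can be.

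The cells were mouse embryonic fibroblasts of the 129S6/SvEvTac strain, either Wild-type (WT) or GCN2-/- (KO), cultured in complete DMEM or in DMEM from which leucine was left out, in both cases for 24 h. Each of the 4 conditions had 1 NRF2 library and 1 peak list. The labels add 2 input libraries without antibody, both from complete medium and 1 per genotype, and the lists of both media of a genotype were called against that genotype's input, per the file headers. The lists of 1 genotype differ in medium and are not replicates, so differences between sets could not be checked over replicates and were not tested. The labels do not say whether each genotype was 1 cell line or several cultures. A peak list measures neither the knockout nor markers of fibroblasts, so these labels were not checked.

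NRF2, encoded by Nfe2l2, is a CNC family basic leucine zipper factor that is degraded through KEAP1 under basal conditions and accumulates under oxidative or electrophilic stress. It binds the antioxidant response element (ARE) as a heterodimer with a small Maf protein and drives genes of glutathione synthesis, quinone detoxification, NADPH supply, and heme and iron handling. GCN2, encoded by Eif2ak4, is the kinase that responds to uncharged tRNA in amino acid shortage and, through eIF2α phosphorylation, raises translation of the transcription factor ATF4.

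Some of the recurrent regions lie on promoters, and the DNA there is shown first because it links the peaks to the letters that NRF2 is known to read. Promoters are from RefSeq (GRCm38.p6, the build that mm10 names) and run from 250 bases before to 50 bases after each start site. The ARE core was searched as TGACNNNGC and the AP-1 element as TGAGTCA, on both strands. An ARE that reads TGACTCAGC contains TGACTCA, which is TGAGTCA on the opposite strand, so such a site counts for both. Capitals mark the 9 bases of the ARE match, each sequence is written on the strand that carries the match, and 10 flanking bases are given on either side. Shown are 4 promoters of the WT-recurrent set and 1 of the KO-recurrent set that carry a match inside the peaks of both media:
Cxcl10: actttggagaTGACTCAGCaaggctccgc
Htatip2: gtctgagctgTGACTCAGCacttccctag
Fetub: cgcccacgcaTGACGCAGCaagaaagctg
Gm46822: tggaagacaaTGACTAAGCagaaacctca
Gm46952: cctttcagcgTGACTAAGCagtttctgcc

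The Cxcl10 match (chr5:92348947-92348975, plus strand) lay 28 bp from the peak centre of WT cells in complete medium and 6 bp from that without leucine. Cxcl10 encodes an interferon-induced chemokine. The Htatip2 match (chr7:49759453-49759481, plus strand) lay 63 and 13 bp from those centres, and that of Fetub, which encodes the secreted protease inhibitor fetuin-B, lay 21 and 43 bp away (chr16:22920102-22920130, minus strand). Gm46822 is a predicted gene on the strand opposite Gclm, and its match (chr3:122245642-122245670, minus strand) lay 18 and 13 bp from the centres of the peaks at the Gclm start site. The match in the promoter of Gclm itself, centred at -130 bp, was outside both peaks. Gm46952, the KO-recurrent case, lies in an intron on chromosome 6 that the authors' annotation assigned to Gm16039 (now Umad1). Its match (chr6:8345598-8345626, minus strand) lay 52 bp from the peak centre in complete medium and 7 bp from that without leucine.

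In all, 9 promoters overlapped a WT-recurrent region and 6 of them held an ARE match (66.7%), with 3 holding the AP-1 element. Among 3 promoters overlapping a KO-recurrent region, 1 held an ARE match and 0 the AP-1 element. Of all 32851 promoters in the table, 12.4% held an ARE match and 5.20% the AP-1 element. The promoters of Gclm and Gm46822 overlapped the same WT-recurrent region, and the Gclm match, outside both peaks, is included in the count. Promoters under other NRF2 peaks are not counted here, so these values do not set the recurrent sets apart from other NRF2 sites. A match is a description of the letters, and the regions outside promoters were not searched.

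The WT-recurrent set made up 1.04% of all merged regions and the KO-recurrent set 0.674%. Most regions, 5226, 3955, 2562 and 1706, were held by 1 list alone, namely WT without leucine, KO without leucine, KO in complete medium and WT in complete medium. The regions held by all 4 lists numbered 256. Of the 6 possible pairs of lists, the WT pair gave the most regions, 149, and the KO pair gave 97, as did the pair of no-leucine lists from the 2 genotypes. The other 3 pairs, each crossing genotypes, gave 66, 44 and 23 regions.

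The lists also differ in length, which in complete medium was 2336 peaks for WT and 3141 for KO, and without leucine 5980 and 4600. Per 1000000 possible pairs of peaks from the 2 lists, the WT pair gave 10.7 regions and the KO pair 6.71, while the 4 pairs that cross genotypes gave 3.13 to 4.09. These are the counts that define the sets, and the lists of 1 genotype share an input library while lists of different genotypes do not, so the values are a description and the part of the shared input was not tested. Cutting each list to the length of the shortest left 127 WT-recurrent and 61 KO-recurrent regions, and keeping the higher-scoring 50% of each list left 105 and 48. Requiring both own peaks to be in the higher-scoring 50%, with no peak of the other genotype at any score, left 102 and 43. Without the list of WT cells lacking leucine, 148 regions were in both KO lists and not in the remaining WT list. Read numbers per library are not known here, and a site without a call in a library may still be bound there at a level under the caller's limit.

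**Figure D1:**
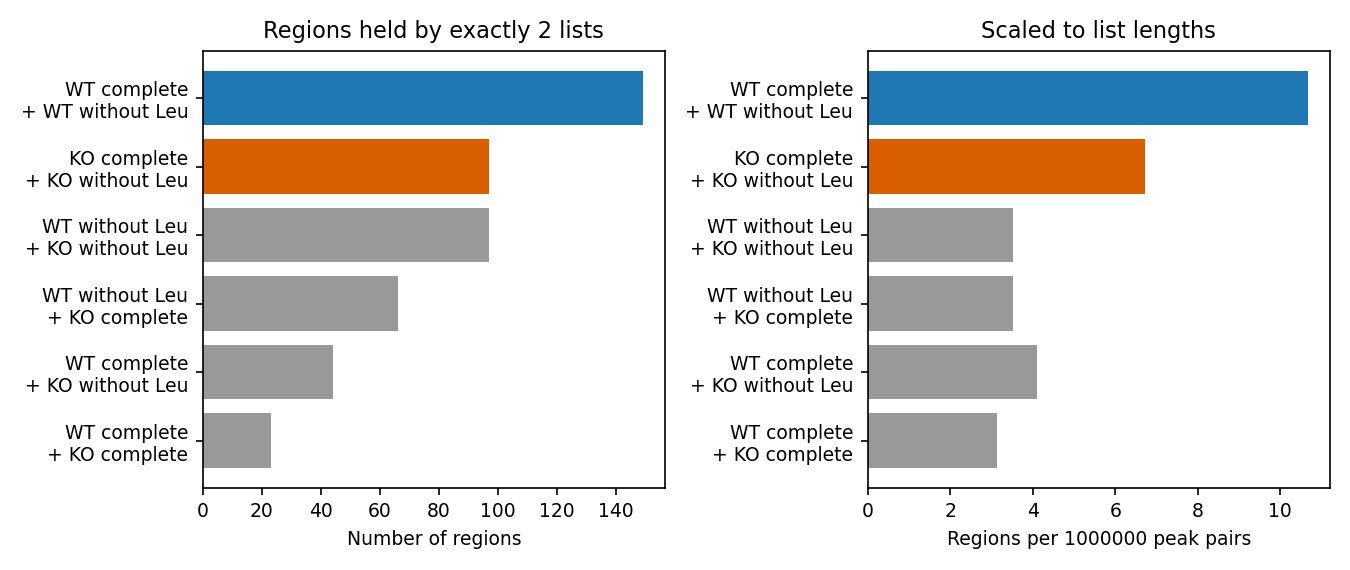
Number of merged regions held by exactly 2 of the 4 peak lists (left) and the same number per 1000000 possible pairs of peaks from the 2 lists (right). The WT pair (blue, 149 regions, 10.7 on the scaled axis) and the KO pair (orange, 97 regions, 6.71) define the 2 sets and come from lists that share an input library, while the 4 pairs that cross genotypes (grey, 3.13 to 4.09 on the scaled axis) do not share one.

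Recurrence in 1 genotype only became rarer with score. Of 536 regions in both WT lists, 149 were in neither KO list (27.8%, 95% exact Clopper-Pearson interval 24.0 to 31.8), 131 were in 1 KO list and 256 in both. Where both WT peaks were in the upper 10% of their lists by score, 18 of 202 regions were in neither KO list (8.91%, 5.37 to 13.7). Of 431 regions in both KO lists, 97 were in neither WT list (22.5%, 18.6 to 26.7), against 12 of 198 in the upper 10% (6.06%, 3.17 to 10.3). Intervals in this text cover counting error only and treat regions as independent.

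The peak score is the authors' own whole number per peak, with a lowest value of 13 in every list, and it is used here only to rank peaks within a list. WT-recurrent regions scored 17 to 221 (median 51) in complete medium, where the median of the whole list was 38, and 16 to 220 (median 64) without leucine, where the list's median was 30. KO-recurrent regions scored 17 to 267 (median 40) in complete medium and 13 to 205 (median 39) without leucine, against list medians of 34 and 31. In the WT list without leucine 75 of 149 members stood in the upper 10%, and in complete medium 23 did. In the KO lists 24 of 97 stood in the upper 10% without leucine and 20 in complete medium. The lists differ in length and background, so a score or rank in 1 medium is not set against that in the other as a change.

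**Figure D2:**
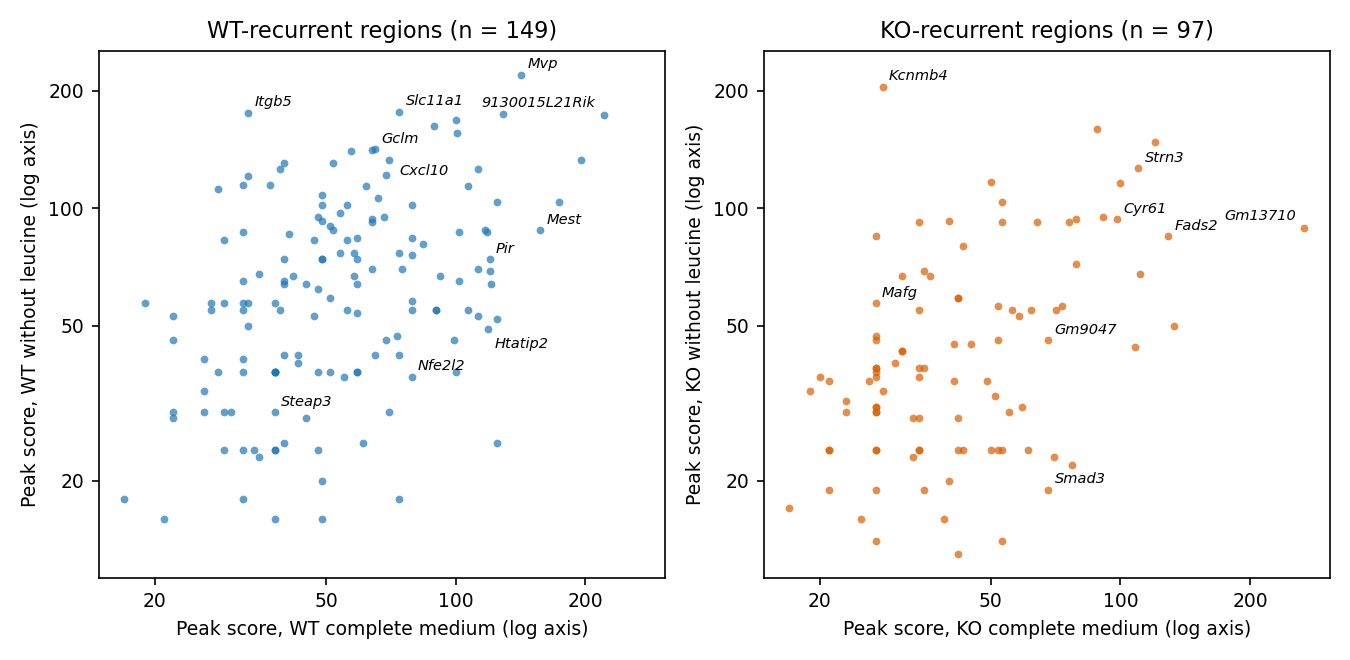
Peak score of each WT-recurrent region (left, 149 points) and each KO-recurrent region (right, 97 points) in complete medium (x axis) and without leucine (y axis), both on log axes, with some nearest genes named. The points spread over about the same range in both media, and some members scored high in only 1, such as Kcnmb4 with 28 in complete medium and 205 without leucine.

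Among established NRF2 targets, 2 of 51 genes on the list used here had a WT-recurrent region within 10 kb of the start site, Gclm and Nfe2l2, and 1 of 51 had a KO-recurrent region, Mafg. Of these 51 genes, 36 had a peak within 10 kb in some list and 18 had one in all 4, so most NRF2 targets with peaks were outside both recurrent sets. As background, 1.55% of the 3152 genes with any peak within 10 kb had a WT-recurrent region there (49 genes) and 0.635% a KO-recurrent one (20 genes). With 2 and 1 target genes against 36 with a peak, the counts are too small to set the list apart from that background. Leaving out a list also loosens the rule: without WT complete, WT no-leucine, KO complete or KO no-leucine, 8, 6, 4 and 4 target genes had a region that met the remaining WT conditions, and 1, 2, 1 and 2 met the KO conditions, the 2 counts of 1 being equal to the main one.

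Gclm encodes the modifier subunit of glutamate-cysteine ligase, the enzyme that commits cysteine to glutathione synthesis. Its region (chr3:122245493-122245824) covered the start site. The peak in complete medium scored 65 (rank 428 of 2336), centred at 117 bp in the 5' UTR, and the peak without leucine scored 142 (rank 189 of 5980), centred at 86 bp. Both WT libraries thus held the site, in the upper part of their lists, and the nearest KO peak lay 50064 bp away.

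Nfe2l2, the gene of NRF2 itself, had its region in intron 1 of 4 (chr2:75703797-75704177), in a CpG-rich window. It scored 79 (rank 314) in complete medium and 37 (rank 2077) without leucine, with centres at 694 and 614 bp. The nearest peak of either KO list was 310988 bp away.

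Mafg encodes a small Maf protein that pairs with NRF2 on the ARE. Its KO-recurrent region (chr11:120632809-120633218, intron 1 of 2) was weak in complete medium, scoring 27 (rank 2096 of 3141) at 588 bp, and scored 57 (rank 560 of 4600) without leucine at 479 bp. Another Mafg site, centred between 3300 and 3353 bp from the start, was in all 4 lists, with scores of 268 and 234 in WT and 229 and 116 in KO cells. The gene therefore had NRF2 peaks in both genotypes, and only the weaker site near the start was KO-recurrent. This site no longer counted when peak centres had to lie within 100 bp or when own peaks had to be in the higher-scoring 50%.

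Of 31 heme and iron genes, 2 had a WT-recurrent region within 10 kb and 0 a KO-recurrent one, while 15 had a peak in some list and 5 in all 4. Against the background of 1.55% and 0.635% of genes with any peak, these counts are too small to set the list apart. Slc11a1, which encodes the divalent metal transporter NRAMP1 of phagosomes, had the region in intron 2 of 14 (chr1:74376455-74376757), with scores of 74 (rank 344) in complete medium and 177 (rank 132) without leucine. The centres were 2 bp apart, and the nearest KO peak was 492500 bp away. Steap3, which encodes the ferrireductase of the transferrin cycle, had a promoter region (chr1:120271242-120271657) with low scores, 38 (rank 1108) at -425 bp and 30 (rank 2557) at -310 bp. A KO peak without leucine, scoring 22, lay in an intron of Steap3 at 2657 bp, so this gene was not free of KO peaks.

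Of 41 genes of the ATF4 and amino acid response, 0 had a WT-recurrent and 0 a KO-recurrent region within 10 kb, and 5 had a peak in any list. With 5 such genes and a background of 1.55% and 0.635% of genes with any peak, counts of 0 say nothing particular about this list. On the list of 20 AP-1, CNC and small Maf genes the hits were again Nfe2l2 and Mafg, which are on both lists. Of these 20 genes, 6 had a peak within 10 kb in some list. Eif2ak4 had 1 peak in all lists, in WT cells without leucine (score 30, rank 2557, in an intron at 16973 bp), and belonged to neither set.

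The best-ranked WT-recurrent region lay in intron 1 of the uncharacterised gene 9130015L21Rik (chr2:160021553-160021898), with scores of 221 (rank 76) and 173 (rank 139) in complete medium and without leucine. Next came a site nearest Sdpr (now Cavin2, a caveola coat protein), scoring 196 and 133, in an intron of 9330175M20Rik. Mvp, the major vault protein gene, followed with a site in intron 1 of 14 (chr7:127008717-127009035) that scored 142 (rank 144) and 220 (rank 95). The nearest KO peak to the Mvp site lay 21430 bp away. None of these 3 sites was on a promoter.

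Other high-ranking WT-recurrent sites near genes covered several functions. Mest, an imprinted gene of the hydrolase fold family, held one in intron 1 of 11 (157 and 88, the first score being that of complete medium here and below). The site nearest Mirlet7i, a let-7 microRNA, was intergenic (113 and 126). That nearest the phospholipid scramblase gene Xkr8 lay in intron 7 of Smpdl3b (chr4:132735408-132735717, 101 and 156), and that nearest AI413582 in intron 4 of Hmga1 (107 and 114), where a KO peak lay 5655 bp away. Pir, which encodes the iron-binding nuclear protein pirin, had a site in its 5' UTR, exon 1 of 10 (chrX:164269389-164269700, 120 and 74), and Cox20, which acts in cytochrome c oxidase assembly, a promoter site at -930 bp (121 and 64). Cdc34, a ubiquitin-conjugating enzyme gene, had one in intron 1 of 4 (90 and 55), and Vpreb2 an intergenic one (75 and 70), with a KO peak only 679 bp from it.

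Beyond 10 kb, the best-ranked WT-recurrent sites were nearest 2010111I01Rik (now Aopep), Mir3108 (in an intron of Zfhx3), Sucla2, Adam12, Hnrnpll, Cmip and Zfml (now Zfp638). Their scores ran from 89 to 174 in complete medium and, without leucine, from 87 to 174. The Sucla2 site was 286214 bp from the start of its nearest gene, so the gene name gives a location only. For the top 15 WT-recurrent sites the nearest KO peak was between 5655 and 1279860 bp away.

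Promoters held 7 WT-recurrent sites, at Cox20, Cxcl10, Gclm, Htatip2, Fetub, Mir22 and Steap3. The Cxcl10 site (chr5:92348805-92349139) scored 70 (rank 366) and 133 (rank 204) and the Fetub site 59 and 54, and the nearest KO peak was 221615 bp from the Cxcl10 site and 347841 bp from the Fetub site. Htatip2 scored 119 (rank 192) and 49 (rank 916) at the promoter (chr7:49759304-49759680). Further into the Htatip2 gene, KO peaks lay at 3345 and 4607 bp in complete medium and at 4641 bp without leucine, and WT peaks without leucine lay at 3341 and 4671 bp. So the WT-recurrent call at Htatip2 concerned the promoter and not the gene as a whole. Mir22 had 28 and 112. Outside promoters, 7 more sites were in exons, 3' UTRs or transcript ends, among them a non-coding exon of A330023F24Rik beside Mir29b-2 and the 3' UTRs of 1600014C10Rik, Dgat2 and Tbc1d14.

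The best-ranked KO-recurrent site was intergenic, at -38974 bp from Gm13710 (chr2:84545691-84545997), with scores of 267 (rank 35 of 3141) in complete medium and 89 (rank 271 of 4600) without leucine. It was followed by an intron of 1700017G19Rik in an Lx8b LINE element (120 and 148) and by a site nearest Strn3, a striatin family gene, in intron 1 of Ap4s1 within an ORR1A4 LTR element (110 and 127). A WT peak lay 7138 bp from the second of these and 30406 bp from the third. Over the top 15 KO-recurrent sites the nearest WT peak was between 902 bp (nearest Sim2) and 371015 bp (nearest Tenm3) away. The rest of the top 15 were nearest Prok2, Adra2a, Fads2, Cyr61, Trmt13, Tenm3, Pinc, Sim2, Ifi35, Chpt1, Htr1d and Frmd6, with scores of 53 to 133 in complete medium and, without leucine, of 50 to 160. Within 10 kb of a start site lay 25.3% of all merged regions. The share was 29.3% for the 75 better-ranked WT-recurrent regions and 24.5% for the 49 better-ranked KO-recurrent ones. Of the top 15 KO-recurrent sites, 4 were within 10 kb of the named gene, against 7 of the top 15 WT-recurrent sites, counts too small to set the sets apart.

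Those within 10 kb were at Strn3, Cyr61 (now Ccn1, a matricellular protein gene, 98 and 94), Trmt13 (a tRNA methyltransferase gene, in intron 8 of Sass6, 91 and 95) and Ifi35 (an interferon-induced gene, intron 1 of 6, 79 and 72). Further down the ranking came Shc4 (58 and 53), C1ql2 (52 and 56), the prostaglandin E2 receptor gene Ptger4 (42 and 59), the kinase gene Dyrk2 (34 and 92) and Chadl (59 and 31). Kcnmb4, a subunit of calcium-activated potassium channels, had an intergenic site at -3262 bp (chr10:116476619-116476935) that scored 28 (rank 2017) in complete medium and 205 (rank 78) without leucine, the highest KO-recurrent score in that list. Tiam1 (42 and 29), Cyp4f13 (70 and 23) and Smad3, which encodes a transducer of TGF-β signals (68 and 19, intron 1 of 8), completed the 15 best. The single promoter site was that of Gm9047 (now Atp6v1fnb), with 68 and 46 at -313 bp. Of the 4 sites in exons, 3' UTRs or transcript ends, those in Epha4, Def8, Cbfa2t3 and Snx7, none scored above 42 in complete medium or 39 without leucine.

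At the level of genes, 43 of the 49 genes with a WT-recurrent region within 10 kb had no KO peak of any kind within 10 kb (87.8%, interval 75.2 to 95.4). Of all 1935 genes with a WT peak within 10 kb, 80.3% had no KO peak within 10 kb, a share inside that interval. The 6 genes with one were 1600014C10Rik, AI413582, H6pd, Htatip2, Steap3 and Vpreb2. Of the 20 genes with a KO-recurrent region within 10 kb, 15 had no WT peak within 10 kb (75.0%, 50.9 to 91.3), near the 76.2% of all 1598 genes with a KO peak within 10 kb. The other 5 were Becn2, Chadl, Mafg, Smad3 and Themis2. The rule had already removed peaks of the other genotype at the member sites. With any distance allowed, 35 of the 49 and 9 of the 20 genes had no peak of the other genotype assigned to them. The same share over all genes is not given here, so these counts have no background to be read against.

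A larger share of the WT-recurrent than of the KO-recurrent set lay near start sites, with overlapping intervals at both 1 kb and 10 kb. Of the WT-recurrent set, 49 of 149 were within 10 kb of a start site (32.9%, 25.4 to 41.0), against 20 of 97 of the KO-recurrent set (20.6%, 13.1 to 30.0), 37.9% of the regions in all 4 lists and 25.3% of all merged regions. The share of all regions lay just below the WT-recurrent interval and inside the KO-recurrent one. Within 1 kb the counts were 12 (8.05%, 4.23 to 13.6) and 2 (2.06%, 0.251 to 7.25). The shares were 7.81% for regions in all 4 lists, 4.76% for those in a single WT list and 3.36% for those in a single KO list. Over all regions the share was 4.18%, just below the WT-recurrent interval and inside the KO-recurrent one. The median distance was 23364 bp for WT-recurrent and 30495 bp for KO-recurrent regions, and 26253.5 and 32048 bp for regions in a single WT or a single KO list. The difference between the 2 sets thus had the same direction as that between the single-list regions of the 2 genotypes. Without the no-leucine WT list the 10 kb share on the WT side was 24.0%.

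By class, introns held 70 WT-recurrent (47.0%) and 37 KO-recurrent regions (38.1%), against 43.4% of all regions. Intergenic windows held 64 (43.0%, 34.9 to 51.3) and 54 (55.7%, 45.2 to 65.8), against 44.8% of all regions. Promoters held 7 (4.70%, 1.91 to 9.44) and 1 (1.03%, 0.0261 to 5.61), against 4.69% of regions in all 4 lists and 2.06% of all regions. Exons, 3' UTRs, transcript ends and non-coding exons held 7 (4.70%, 1.91 to 9.44) and 4 (4.12%, 1.13 to 10.2), near the 3.91% of regions in all 4 lists. The shares were 10.4% and 8.96% for regions in a single WT or KO list. The first lay above the WT-recurrent interval and the second inside the KO-recurrent one. A CpG content over 5% of the window was found for 6 WT-recurrent windows (4.03%) and 1 KO-recurrent window (1.03%, Mafg), against 7.42% of regions in all 4 lists and 2.13% of all regions. The interval of each set included the share of all regions. The 6 were at Gclm, Nfe2l2, Hsp90ab1, Zfand5, Filip1l and Pex2, the last 4 being named after their values were seen, and the last 2 were annotated as ribosomal RNA sequence. Median GC content was 50.5% and 50.2%, against 50.5% for regions in all 4 lists and 52.2% over all regions.

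**Figure D3:**
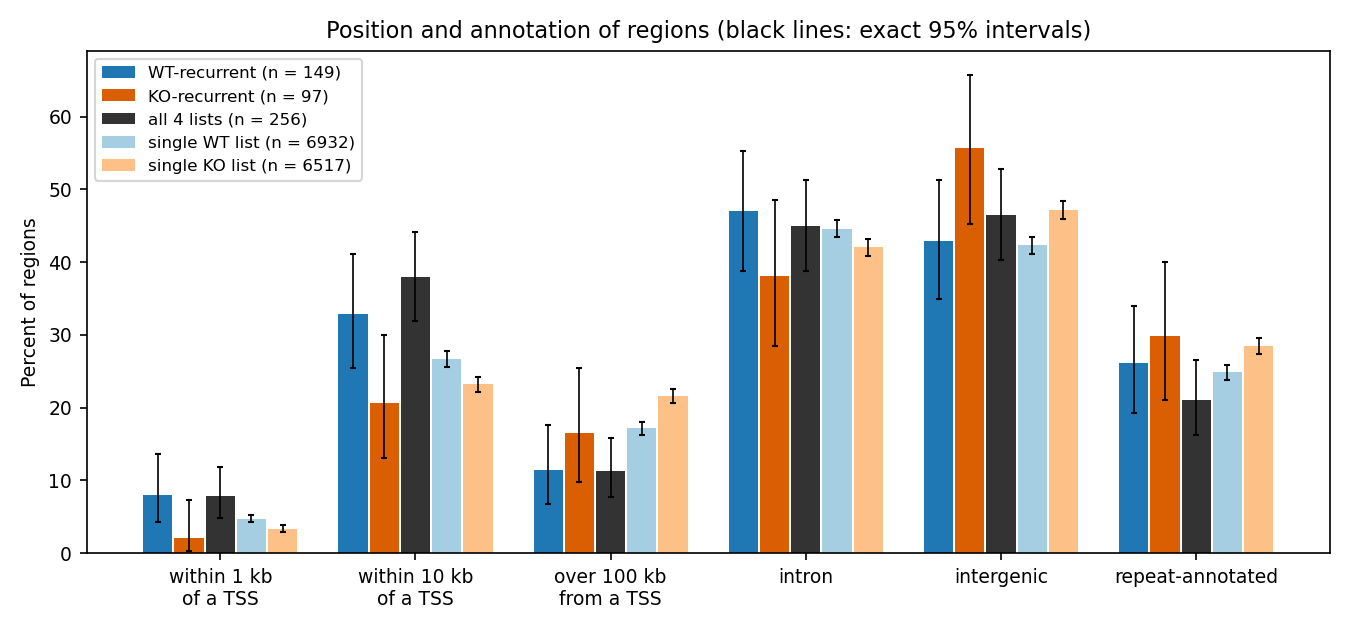
Percent of regions by distance to the nearest TSS, annotation class and repeat overlap, for WT-recurrent, KO-recurrent, all-list and single-list regions, with exact 95% intervals as black lines. The WT-recurrent share within 10 kb of a TSS (32.9%) lies between those of all-list regions (37.9%) and single WT regions (26.7%), while the KO-recurrent share (20.6%) lies below that of single KO regions (23.2%).

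The positions of the peaks within a region were compared between media, a measure on which the rule put only the limit that windows of 301 positions overlap. In the WT-recurrent set the 2 peak centres were a median of 33 bp apart (interquartile range 12 to 65), and 99 of 149 were within 50 bp (66.4%, 58.3 to 74.0). In the KO-recurrent set the median was 57 bp (17 to 109), and 47 of 97 were within 50 bp (48.5%, 38.2 to 58.8). Regions in all 4 lists were tighter, with medians of 19 bp for their WT pair and 21 bp for their KO pair and 84.4% and 82.8% within 50 bp. Both intervals of the recurrent sets lay below those of the all-list regions, which were 79.3 to 88.6 and 77.6 to 87.2. All-list regions also ranked higher. Of the 202 regions with both WT peaks in the upper 10%, 144 were in all 4 lists and 18 were WT-recurrent. Of the 198 such regions for KO, 162 were in all 4 lists and 12 were KO-recurrent.

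Within each set the offset went with rank. The 75 better-ranked WT-recurrent regions had a median offset of 20 bp and 82.7% within 50 bp, and the 74 lower-ranked ones 50 bp and 50%. The 49 better-ranked KO-recurrent regions had a median of 32 bp and 59.2% within 50 bp, and the 48 lower-ranked ones 80.5 bp and 37.5%. The share within 10 kb of a start site did not follow rank in 1 direction: it was 29.3% and 36.5% for the better- and lower-ranked WT members and 24.5% and 16.7% for the KO members. The better-ranked WT-recurrent regions were thus near the all-list WT pair, with its median of 19 bp and 84.4% within 50 bp. Whether rank accounts for the wider offsets of either set against all-list regions, or of the KO-recurrent against the WT-recurrent set, was not tested.

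**Figure D4:**
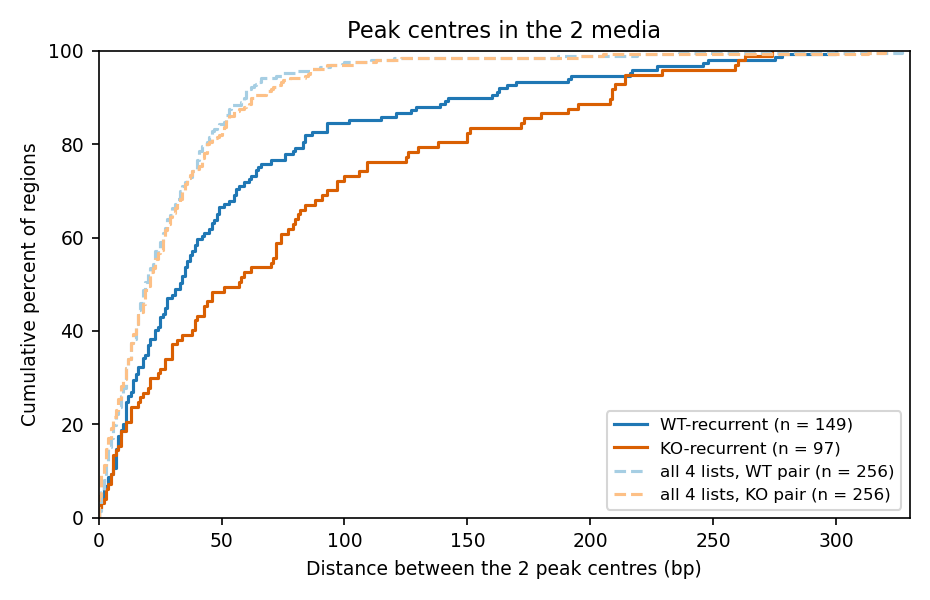
Cumulative percent of regions (y axis) against the distance in bp between the peak centres of the 2 media (x axis), for the WT-recurrent and KO-recurrent sets (solid) and for the WT and KO pairs of peaks in regions of all 4 lists (dashed). The KO-recurrent curve lies to the right, with 48.5% within 50 bp against 66.4% for the WT-recurrent set and over 80% for both dashed curves.

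Repeat-annotated windows held 39 WT-recurrent regions (26.2%, 19.3 to 34.0) and 29 KO-recurrent regions (29.9%, 21.02 to 40.04), both near the 26.8% of all merged regions, which their intervals included. SINEs held 16 (10.7%) and 11 (11.3%), against 8.03% of all regions, and LTR elements 15 (10.1%) and 12 (12.4%), against 9.49%. LINEs held 5 (3.36%) and 4 (4.12%), against 6.53% of all regions. For each of these classes the intervals of both sets included the share of all regions. B2 and B3 SINEs, which are short elements derived from tRNA genes, held 12 WT-recurrent regions (8.05%, 4.23 to 13.6), 5 KO-recurrent ones (5.15%, 1.69 to 11.6) and 5.86% of regions in all 4 lists, the intervals of the 2 sets overlapping. They held 2.38% of all regions, 2.05% of regions in a single WT list and 1.84% of those in a single KO list. These shares were below the WT-recurrent interval and inside the KO-recurrent one. The WT-recurrent members were 8 B3 windows, nearest Mirlet7i, Xkr8, Hnrnpll, Trak2, Herc2, Itgb5, Il18bp and Cdc26, 3 B3A windows, nearest Nppc, Cyp39a1 and Mmadhc, and 1 B2 window. The KO-recurrent set had 3 B3 windows (Prok2, Ifi35 and Gm7244) and 2 B2 windows (Trmt13 and Kcnmb4). Genes named here for their repeat alone were chosen after the values were seen.

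ERVL-MaLR elements, an LTR family that includes ORR1, held 9 KO-recurrent regions (9.28%, 4.33 to 16.9) and 6 WT-recurrent ones (4.03%, 1.49 to 8.56), against 5.80% of single KO-list regions, 4.02% of single WT-list regions and 1.95% of regions in all 4 lists. The 2 intervals overlapped, and each included the share of the single-list regions of its genotype and the 4.93% of all regions. Among the KO members were ORR1A4 at Strn3, ORR1A2 at Frmd6 and ORR1B1 at Sorbs2. ERVK elements held 6 WT-recurrent regions (4.03%, 1.49 to 8.56) and 1 KO-recurrent region (1.03%, 0.0261 to 5.61), against 5.08% of regions in all 4 lists and 2.87% of all regions, a share inside both intervals. Reads of 50 bp can fit several copies of a repeat, and the sources used here do not give how such reads were handled. Unplaced contigs held 3 KO-recurrent regions (3.09%, 0.642 to 8.77) and 0 WT-recurrent ones (up to 2.45%), against 1.17% of regions in all 4 lists, which lies inside the KO-recurrent interval, and 0.215% of all regions. The repeat calls of the 2 peaks differed in 9 WT-recurrent and 11 KO-recurrent regions.

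Along the chromosomes, the WT-recurrent set had 16 regions on chromosome 1 (10.7%, 6.26 to 16.9) and the KO-recurrent set 6 (6.19%), against 6.25% of all regions. Chromosome 4 held 13 KO-recurrent regions (13.4%, 7.33 to 21.8) and 8 WT-recurrent ones (5.37%), against 7.40% of single KO-list regions and 7.44% of all regions. Chromosome 7 held 13 WT-recurrent and 4 KO-recurrent regions (6.98% of all regions), chromosome 5 held 9 and 2 (7.92%), and chromosome 8 held 5 and 9 (6.29%). For chromosome 5 the share of all regions lay above the KO-recurrent interval (2.06%, 0.251 to 7.25), which was not tested. On each of these chromosomes the intervals of the 2 sets overlapped. The X chromosome held 1 WT-recurrent region, that of Pir, and 0 KO-recurrent ones, and it held only 59 of all 14390 merged regions (0.410%).

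**Figure D5:**
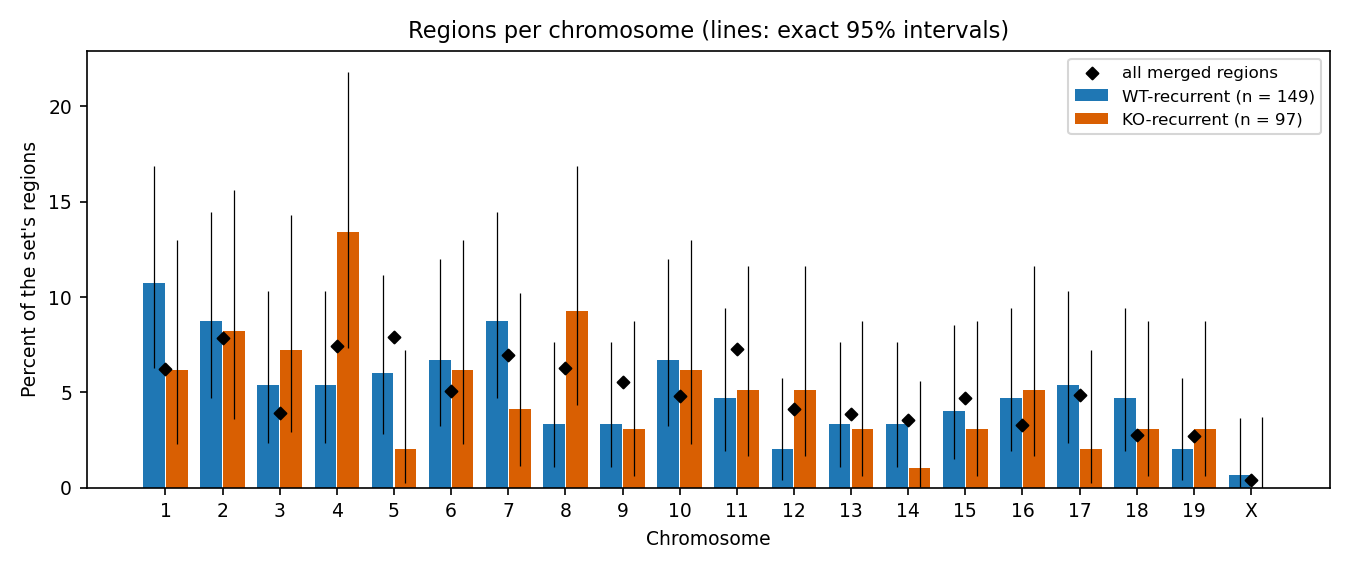
Percent of the WT-recurrent (blue) and KO-recurrent (orange) regions on each chromosome, with exact 95% intervals, and of all merged regions (diamonds). Chromosome Y, with 0 members, and unplaced contigs are left out. The widest gaps between the sets are on chromosome 4 (5.37% and 13.4%) and chromosome 8 (3.36% and 9.28%).

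Few members lay close to each other. Another region of the same set was within 100 kb for 8 WT-recurrent (5.37%) and 4 KO-recurrent regions (4.12%), and the median distance to the nearest was 4.35 Mb and 9.20 Mb, the second set being smaller. The tightest WT pair was intergenic upstream of Dlg1, which encodes a scaffold protein of cell junctions, with 32 bp between the regions (chr16:31598466-31598782 and chr16:31598815-31599202). The first scored 79 and 84 and the second 32 and 38. Another was in 1600014C10Rik, with 6026 bp between an intron site (59 and 64) and a 3' UTR site (35 and 68). Each of these 2 sites had 15 other merged regions within 100 kb, against a median of 2 in the set. A KO peak lay at -2656 bp from the start of this gene. The other pairs were nearest Mapk1ip1l and Lgals3 (27344 bp apart) and nearest Mest and Mir335 (65312 bp). The KO pairs were nearest 1700109G15Rik (62516 bp apart) and Pisd-ps3, on an unplaced contig (27974 bp). Each Pisd-ps3 site had 18 other merged regions within 100 kb, against a median of 2 in the KO-recurrent set.

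WT-recurrent and KO-recurrent regions also stood near each other, within 100 kb in 4 cases, and the nearest such pair was 56445 bp apart. These were Xkr8 (WT) with Themis2 (KO), Steap3 with C1ql2 (61911 bp), Otos (KO) with Gpc1 (WT, 83521 bp), and 2 introns of Itgb5, an integrin β subunit gene. In Itgb5 the WT-recurrent site lay in intron 2 of 14 in a B3 window (33 and 176), and the KO-recurrent site 85365 bp further on in intron 11, nearest Umps (41 and 45).

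Most members of both sets had a peak of the other genotype within 100 kb. The nearest lay a median of 84.5 kb from WT-recurrent and 59.0 kb from KO-recurrent regions. It was within 100 kb for 80 of 149 (53.7%) and 64 of 97 (66.0%), within 10 kb for 18 (12.1%) and 16 (16.5%), and within 1 kb for 2 and 6. The closest were 457 bp from a WT-recurrent and 307 bp from a KO-recurrent centre, the latter nearest Vmn1r3 and named after its value was seen. These distances also depend on how many peaks the lists of the other genotype hold. Neither these shares nor those for spacing within a set are given here for other regions, so they are not read as traits of the sets.

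Membership rests on overlaps as short as 1 bp for the WT-recurrent set and 27 bp for the KO-recurrent set, with medians of 268 and 244 bp. Overlaps of 100 bp or less made 8 WT-recurrent and 11 KO-recurrent members. Just outside, 3 WT pairs missed overlap by 56 to 70 bp, nearest Rab2a, Gsg1l and Lrrc1, and 5 KO pairs by 13 to 100 bp, nearest Aven, Slc35b1, Nptx2, Traf3 and Foxo6, all named for this position. One region, upstream of Fgfr1, joined 3 WT peaks into 820 bp.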

How the data were processed

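The members and gene lists were chosen with earlier results of these data known, and support from them is not independent. NRF2 ChIP-seq libraries were sequenced as single 50 bp reads, per the labels' protocols, and BWA 0.7.12, MACS2 2.1.0 and HOMER 4.7 were used on mm10, per the submitters' processing notes, with settings not given in the sources used here. Per the file headers each peak has a score, deposited as whole numbers whose column in the caller's output is not stated. The deposited CpG and GC values are a fraction of the window. Class, repeat, nearest gene and distance to its transcription start site (TSS) are the authors' HOMER annotation, and a window spans 301 positions.

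Peaks of all lists were merged by single linkage with Python 3.11.15, pandas 2.3.3 and SciPy 1.17.1, and the merging was tested on simulated data. A region takes its annotation from its peak with the best rank relative to list length. Shares have exact Clopper-Pearson intervals at 95%. Depth per library is unknown. Current symbols came from RefSeq (GRCm38.p6), which matched 245 of 246 members. The genes named are, for each set, the 15 best mean ranks at any distance, the 15 best within 10 kb of a TSS, members of 4 gene lists (NRF2 targets, heme and iron, ATF4 and amino acid response, AP-1 with CNC and small Maf), genes with 2 or more regions, promoter and exon sites, clusters within 100 kb, and Eif2ak4. Alternatives changed the overlap rule, the score and length limits, repeat and distance limits, and left out each list. The motif matches of 1 promoter are not reported here.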

Additional observations from a re-analysis of the deposited data

How the results depend on the processing

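No paired analysis was possible because no result comes from a test, and the lists hold no value at a region where no peak was called. Of 98 alternative values, 76 stayed within 1.5 times the main count or inside the main share's 95% interval. The 149 WT-recurrent regions ranged from 102 to 163 under the other overlap, score, length and repeat settings. The 97 KO-recurrent regions fell to 48 with the higher-scoring 50% of each list, to 61 with equal list lengths and to 43 with own peaks in the higher-scoring 50%. Target genes with a KO-recurrent region, 1 in the main setting, were 0 with centres within 100 bp, with the higher-scoring 50% of each list and with own peaks in that 50%. The WT share near a TSS was 8.05% at 1 kb and 72.5% at 50 kb, and the KO share 2.06% and 61.9%. Leaving out 1 list at a time also loosens the rule. It gave 208 to 5376 WT regions and 124 to 4052 KO regions, 4 to 8 and 1 to 2 target genes, and WT shares within 10 kb of 24.0% to 32.7% and KO shares of 21.8% to 25.7%. The repeat shares of both sets stayed inside their intervals under every alternative. Depth is unknown, so weak sites missed in 1 list cannot be told from absent ones.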
